A study of Mus with 50 samples.

Results

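The livers of 8 mice numbered 7 to 79 were set against those of 13 mice numbered 84 to 128, which makes 21 of the 50 livers measured. Each mouse was placed by the animal number in the title of its sample. Animals 7 to 79 and animals 84 to 128 were labelled alike. All 21 mice were females of a backcross between C57 and FVB, all carried the MMTV-Neu transgene, and all had breast cancer given as a comorbidity. In MMTV-Neu a mouse mammary tumour virus promoter, active mainly in mammary epithelium, drives the Neu proto-oncogene. Neither an age nor the ageing grade by which the livers were chosen was given for any mouse, and no label ties an animal number to a litter, a day or an array run. Each liver was measured on 1 array, so values of 1 group are from separate mice. Animals 137 to 235 (16 livers) and animals 253 to 301 (13 livers) were used to place both groups beside the later numbers.

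The border between numbers 79 and 84 had been found by dividing the ordered livers where these same signals shift, so both groups were chosen by the measured log2 signals. Every difference between animals 7 to 79 and animals 84 to 128 is therefore a description of how the livers were divided, and it is no independent test of a difference between the groups. Genes were sorted by an adjusted p under 0.05 in limma, fitted on all 22180 named genes, and genes that meet it are called past the threshold below. Differences are log2 signals of animals 7 to 79 minus those of animals 84 to 128, with standard errors (SE) from that fit on n = 8 and n = 13 livers. Ranges over livers are given as the lowest, median and highest log2 signal.

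Small structured RNAs are non-coding transcripts that work in complexes with proteins. Small nucleolar RNAs (snoRNAs) guide the modification of ribosomal RNA. Those of the box C/D type direct methylation and those of the box H/ACA type direct pseudouridylation, and in mammals most of them are cut out of introns of a host gene. Y RNAs bind the Ro protein, the RNA of RNase P trims the front end of transfer RNA precursors, and the telomerase RNA is the template for telomere repeats. Among messenger RNAs the hepatocyte is rich in those for mitochondrial enzymes, including the kynurenine pathway, by which the liver breaks down most dietary tryptophan.

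The arrays of 4 livers need naming first. The median correlation of a liver's signals with those of the other 20 livers was 0.910 for animal 64, 0.950 for animal 84 and 0.962 for animal 87, and it lay between 0.959 and 0.981 in the 18 remaining livers. Animal 64, which belongs to animals 7 to 79, had erythroid markers 5.82 and cell cycle genes 3.99 above their usual log2 level, and hepatocyte markers 1.12 below it. Animal 96, which belongs to animals 84 to 128, had pancreatic acinar markers 6.88 above. These levels are means over a list of each gene's deviation from its median over all 50 livers. Values without animals 64, 84 and 87 are given as those of 18 livers, 7 against 11. The hepatocyte marker Alb, serum albumin, was high in both groups, in keeping with the tissue label. Alb lay at 13.34, 13.41 and 13.49 in animals 7 to 79, against 13.31, 13.46 and 13.54 in animals 84 to 128. The highest of all measured signals was also 13.54, so Alb lay near the top of the scale and says little about a loss. The mean deviation of 14 hepatocyte markers fell to −1.12 in animal 64 and −0.43 in animal 84. Its group medians were −0.01 in animals 7 to 79 and −0.02 in animals 84 to 128.

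Past the threshold were 513 genes, or 2.31% of those tested. Of these, 208 were higher in animals 7 to 79 (0.938%) and 305 were lower (1.38%). The median difference of the higher genes was 0.51 and that of the lower genes −0.48, while the median over all genes was 0.0024. In the 18 livers the counts were 354 higher (1.6%), 705 lower (3.18%) and 1059 in either direction (4.77%). Of the 513 genes, 480 were past the threshold in the same direction in the 18 livers too, which is 93.6% of the calls in 21 livers and 45.3% of those in 18, and 0 genes were past it in opposite directions. Leaving out animal 64 alone gave 619 lower genes. Just inside the threshold were Ndufs8 at 0.41 and Ngrn at −0.37, and just outside it were Faf2 at −0.32 and Zmym3 at 0.24. Ranges of the groups did not overlap for 27 genes that were higher (0.122% of those tested) and 44 that were lower (0.198%), 71 in all (0.32%). Without animals 64, 84 and 87 these counts were 66 (0.298%), 173 (0.78%) and 239 (1.08%).

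The higher and the lower genes were of different kinds. Of the 208 higher genes 132 were protein-coding, as were 300 of the 305 lower ones. Of all 22180 genes 18964 were protein-coding, and of the 11090 at or above the median level 10468 were. At or above that level were 164 of the higher and 303 of the lower genes. The share among the lower genes is thus near that background, while the share among the higher genes lies below it. The 6 RefSeq classes of small structured RNA (small nucleolar, small nuclear, Cajal body guide, Y, RNase P and telomerase RNA) had 97 measured members. Of these 97, 94 had a positive difference, 54 were past the threshold as higher (55.7%, against 0.938% of all genes) and 0 as lower. Their median difference was 0.67, and in the 18 livers 67 were past the threshold with a median of 0.72. Of the 97, 82 had a level at or above the median level of all genes, and all 82 differences were positive. The 15 members below it had a median difference of 0.15, and 3 of them were past the threshold.

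The mean deviation of the 97 RNAs placed the livers of animals 7 to 79 above those of animals 84 to 128. It was 0.50 at the lowest, 0.60 at the median and 0.90 at the highest in animals 7 to 79, against −0.29, −0.11 and 0.40 in animals 84 to 128. The highest values among animals 84 to 128 were 0.40 in animal 87 and 0.33 in animal 96, and animal 84 had 0.05. Animal 64 had 0.76, within the range of its group. The later livers lay between −0.34 and −0.06 (animals 137 to 235) or between −0.27 and 0.44 (animals 253 to 301). All 8 livers of animals 7 to 79 thus lay above all other 42 livers in this mean. Single RNAs did not all keep this order, as given below for Rprl2 and Snord11.

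**Figure D1:**
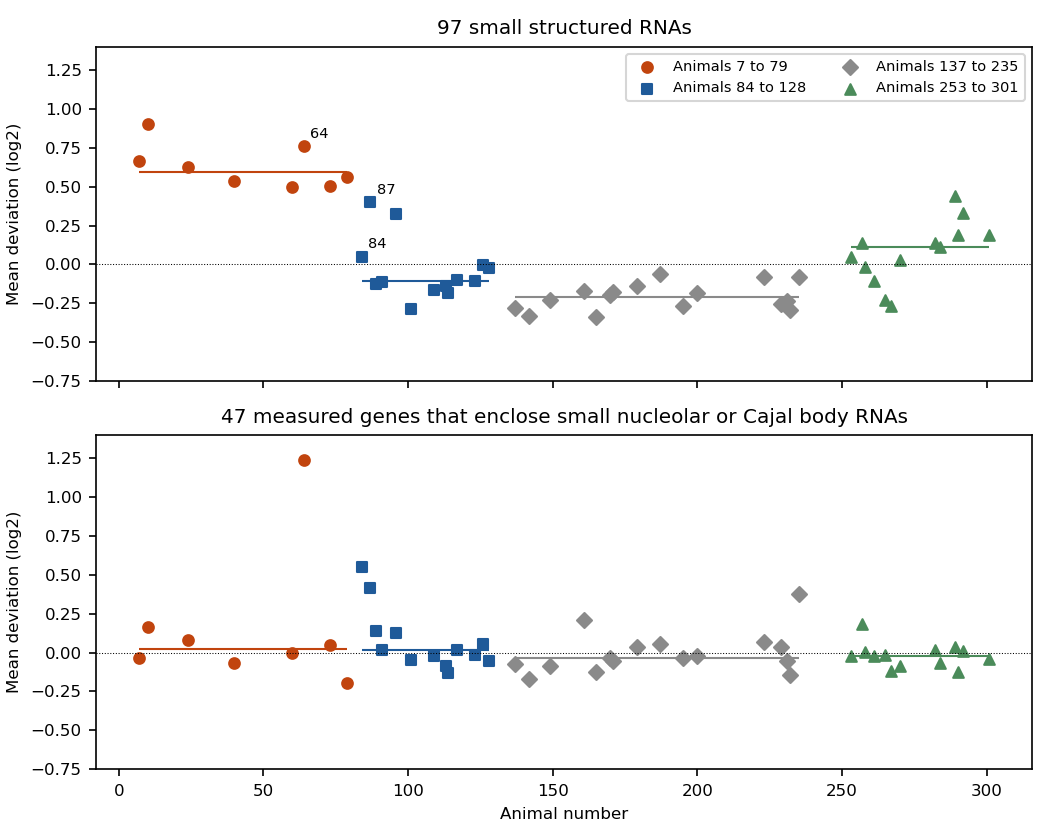
Mean log2 deviation of each of the 50 livers (vertical axes) against animal number (horizontal axis), for 97 small structured RNAs (top) and for 47 measured genes that enclose small nucleolar or Cajal body RNAs (bottom). Each point is 1 liver, its deviation being the mean over genes of the signal minus the gene's median over all livers, and horizontal lines are medians of the 4 stretches of numbers. In the top panel animals 7 to 79 lie between 0.50 and 0.90, above all others, and in the bottom panel animal 64 stands highest at 1.24.

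Both measured Y RNAs were past the threshold as higher, and Rny3 had the largest difference of the 22180 genes. It lay at 8.12, 9.65 and 10.30 in animals 7 to 79, against 7.35, 7.70 and 8.40 in animals 84 to 128. Only animal 64, the lowest of its group, fell inside the range of animals 84 to 128. The difference was 1.77 ± 0.19 (SE), or 3.41-fold, and 1.99 in the 18 livers, where the groups did not overlap. Rny1 lay at 9.74, 10.21 and 10.48, against 8.23, 8.80 and 10.27 in animals 84 to 128, with a difference of 1.34 ± 0.19. Its groups overlapped in 21 livers and did not in 18, with a difference there of 1.57. Of 13 measured proteins of RNase P and of the Ro and La particles, a list added after the values were seen, 1 was past the threshold as higher and 0 as lower. That gene was Pop5, an RNase P subunit, at 0.42 ± 0.11. Over all genes 0.938% were higher and 1.38% lower. Ro60, which encodes the Ro protein, had −0.26 ± 0.11 and Ssb, which encodes La, −0.05 ± 0.16, neither past the threshold.

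Terc, the telomerase RNA, lay at 6.12, 6.85 and 8.14 in animals 7 to 79, against 4.25, 5.55 and 6.32 in animals 84 to 128. Its difference was 1.48 ± 0.26, and its groups overlapped both with and without the 3 livers. Rprl2, which RefSeq lists among the RNase P RNAs, lay at 7.26, 7.61 and 7.98, against 5.81, 6.34 and 6.79 in animals 84 to 128. The groups did not overlap, with a difference of 1.29 ± 0.13. Rpph1, the RNA component of RNase P, was also higher, by 0.86 ± 0.16, while the third member of that class, Rprl1, had 0.30 ± 0.10 and was not past the threshold.

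Of 6 RNAs classed as small nuclear, 4 were past the threshold as higher. Rnu12 and Rnu11, the U12 and U11 RNAs of the minor spliceosome, differed by 1.04 ± 0.15 and 0.77 ± 0.14. Rnu3a, a U3 RNA of ribosomal RNA processing, lay at 5.42, 6.34 and 8.63 in animals 7 to 79, against 4.46, 5.02 and 6.84 in animals 84 to 128, a difference of 1.38 ± 0.36. The spread within each group was wide, and Rnu3a was not past the threshold under 16 of 32 other settings. Rn7sk, the 7SK RNA that holds the elongation factor P-TEFb inactive, was not past the threshold. It lay at 13.15, 13.20 and 13.26, against 13.06, 13.12 and 13.23 in animals 84 to 128, so its whole range over the 21 livers was narrow and near the top of the scale. Rnu5g had 0.15 ± 0.08 and was not past the threshold either. The 5S ribosomal RNA entry n-R5s136, outside these 6 classes, differed by 0.36 ± 0.09 and was past it.

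Both kinds of snoRNA were shifted the same way. Of 46 box C/D members with a Snord symbol, all had a positive difference and 26 were past the threshold, with a median of 0.64. The 26 box H/ACA members with a Snora symbol were likewise all positive, 15 were past the threshold, and their median was 0.75. Among 5 Cajal body RNAs (Scarna), which guide modification of the spliceosomal RNAs, 2 were past the threshold and the median was 0.56. Over all 80 RNAs that RefSeq classes as snoRNA, 77 were positive, 43 were past the threshold and 54 were in the 18 livers. The 43 are 53.8% of the 80, against 0.938% of all genes.

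Snord49a, a box C/D RNA, lay at 9.57, 9.90 and 10.56 in animals 7 to 79, against 7.85, 8.83 and 9.32 in animals 84 to 128, a difference of 1.25 ± 0.17 with no overlap. Snord11 lay at 8.20, 8.35 and 8.98, against 6.81, 7.28 and 7.82 in animals 84 to 128, again with no overlap and a difference of 1.16 ± 0.13. Snord15a lay at 7.07, 7.31 and 8.26, against 5.56, 6.01 and 7.42 in animals 84 to 128, and differed by 1.41 ± 0.20. Only Snord15a of these 3 had overlapping groups. Snora15, a box H/ACA RNA, lay at 8.77, 9.09 and 9.56, against 7.15, 7.80 and 8.89 in animals 84 to 128. Its difference was 1.23 ± 0.16. The snoRNA AF357399 lay at 4.62, 5.79 and 6.32, against 3.72, 4.25 and 5.02 in animals 84 to 128, and differed by 1.43 ± 0.19. Snord42b at 0.92 ± 0.15 and Snord16a at 0.78 ± 0.12 were the other 2 snoRNAs whose groups did not overlap. Scarna6 differed by 0.88 ± 0.16, with groups apart only in the 18 livers.

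Some snoRNAs did not share the shift. AF357425, AF357426 and DQ267102, which lie inside the imprinted non-coding gene Rian, had differences of −0.05, −0.04 and −0.03. Snora35, inside the serotonin receptor gene Htr2c, had 0.07 ± 0.05. These 4 had levels below the median level of all genes, and the 14 snoRNAs below that level had a median difference of 0.16. Of the better measured ones, Snord23 had 0.09 ± 0.15, with 7.67, 9.0 and 9.15 in animals 7 to 79, against 8.34, 8.81 and 9.04 in animals 84 to 128. Snora47 had 0.15 ± 0.15 and Snord53 0.18 ± 0.26. In the last 3 the groups overlapped widely.

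**Figure D2:**
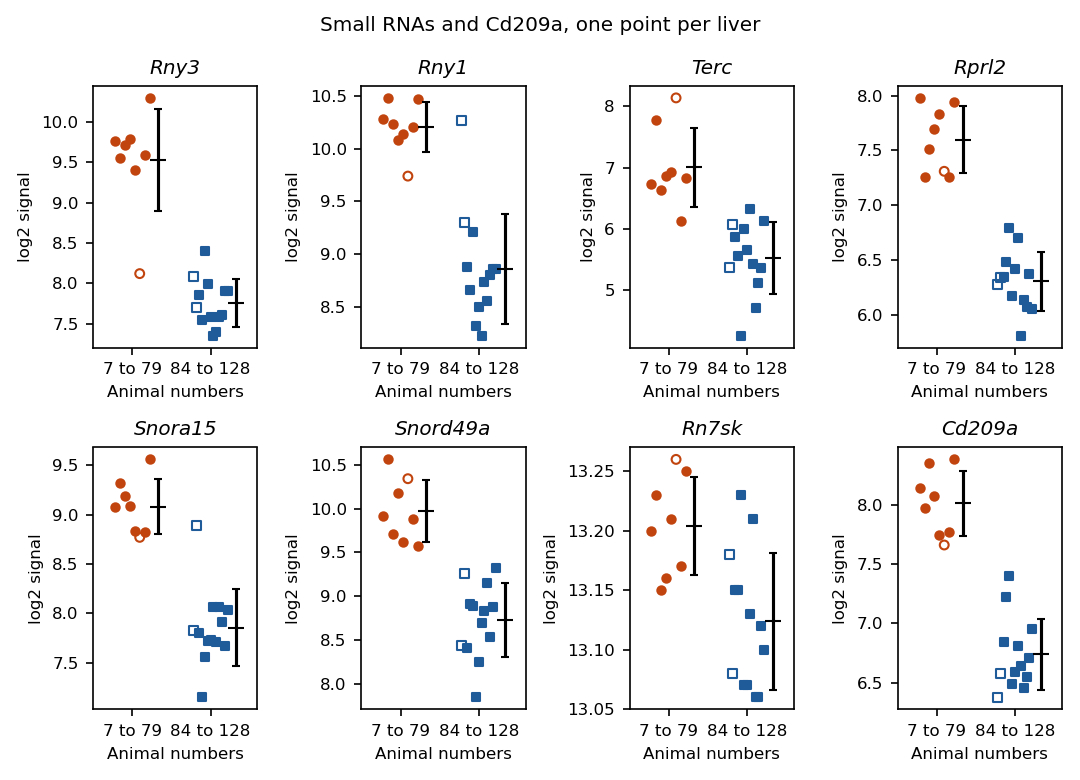
Log2 signal (vertical axes) of Rny3, Rny1, Terc, Rprl2, Snora15, Snord49a, Rn7sk and Cd209a in each of the 8 livers of animals 7 to 79 and the 13 of animals 84 to 128. Open symbols are animals 64, 84 and 87, and bars show the mean and SD of each group. Rprl2, Snord49a and Cd209a have no overlap, and Rn7sk spans only 13.06 to 13.26.

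The genes that enclose the snoRNAs had smaller differences than the snoRNAs themselves. By RefSeq positions, 74 of 85 small nucleolar and Cajal body RNAs lay inside exactly 1 other gene, 4 inside none and 7 inside several. The table gives no strand, so the enclosing gene can be on the other strand. For 64 RNAs the enclosing gene was measured, and these were 47 different genes. The small RNA had the larger difference in 57 of the 64 pairs, and in 60 of 64 in the 18 livers. Median differences were 0.68 for the small RNAs and 0.06 for the enclosing genes, or 0.73 and 0.04 in the 18 livers. Past the threshold were 34 of the 64 small RNAs, against 0 of the 47 enclosing genes as higher and 0 as lower. With 0.938% of all genes higher and 1.38% lower, a count of 0 among 47 is near the background. In the 18 livers 1 enclosing gene was past it as higher and 4 as lower, where 1.6% and 3.18% of all genes were.

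Single pairs show the spread. Snord15a differed by 1.41 and its enclosing gene Rps3, which encodes a ribosomal protein, by −0.05. Snora15 differed by 1.23 and Cct6a, a chaperonin subunit, by −0.16. Both Snord11 and Snord70, at 1.16 and 0.92, lie inside Nop58, a core protein of box C/D particles, which differed by −0.16. Snord49a, Snord49b and Snord65, at 1.25, 0.69 and 0.73, share the enclosing gene 2410006H16Rik, which differed by 0.40. The enclosing genes ran from −0.35 for Eif3a, a translation initiation factor, to 0.67 for Ncapd2, a condensin subunit, and Ncapd2 had 0.15 without the 3 livers. Mean deviation of the 47 enclosing genes was −0.20, 0.02 and 1.24 at the lowest, median and highest in animals 7 to 79, against −0.13, 0.02 and 0.55 in animals 84 to 128. Animal 64 was the highest of its group and animals 84 and 87 the highest of theirs, at 0.55 and 0.42. Small RNAs that share an enclosing gene or a family are not independent of each other.

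**Figure D3:**
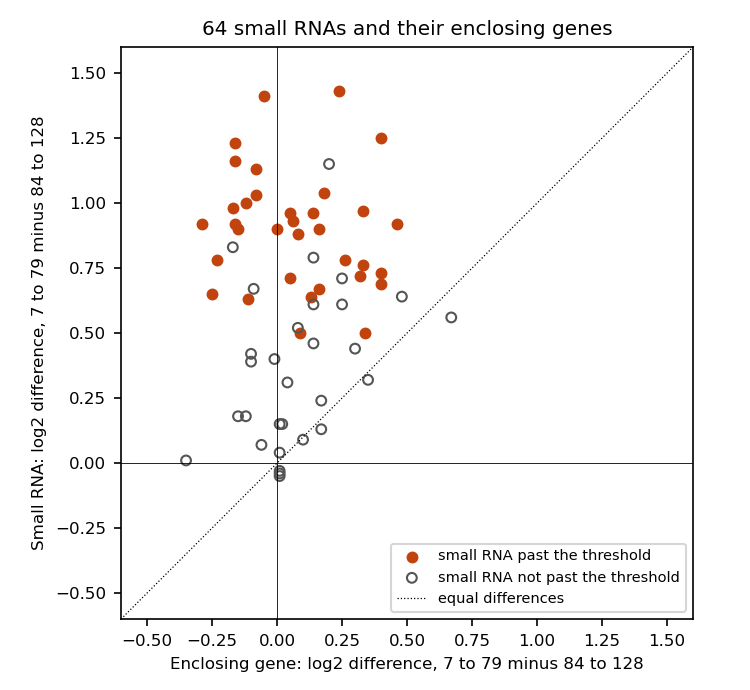
Log2 difference of 64 small nucleolar and Cajal body RNAs (vertical axis) against that of the measured gene that encloses each (horizontal axis), both as animals 7 to 79 minus animals 84 to 128. Filled points are small RNAs past the threshold, and the dotted line marks equal differences. Of the 64 points 57 lie above the line, and the enclosing genes stay between −0.35 and 0.67.

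Of the 9 measured core proteins of snoRNA particles, a list added after the values were seen, 0 were past the threshold in 21 livers. In the 18 livers 2 were lower, and the medians were −0.09 in 21 livers and −0.31 in 18. Over all genes 1.38% were lower in 21 livers and 3.18% in 18, so 0 of 9 is near the background. Fibrillarin's partner proteins Nop56 and Nop58 had −0.09 ± 0.30 and −0.16 ± 0.27, and Dkc1, the pseudouridine synthase dyskerin, −0.10 ± 0.25. In a separate list of 18 measured snoRNA host genes, 2 were past the threshold as higher, where 0.938% of all genes were. These 2 were Rnu12 and Taf1d, a subunit of the RNA polymerase I factor SL1, at 0.93 ± 0.13. Rnu12 is the U12 RNA already counted above among the small nuclear RNAs, so Taf1d was the only host gene of this list past the threshold. Taf1d is a gene with several snoRNAs in its introns. It lay at 10.44, 10.74 and 11.21 in animals 7 to 79, against 9.50, 9.73 and 10.60 in animals 84 to 128. Rabggtb, another such host and a prenyl transferase subunit, had 0.52 ± 0.25 and was not past the threshold.

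Of 1926 long non-coding RNAs 7 were past the threshold as higher (0.363%, against 0.938% of all genes) and 4 as lower (0.208%, against 1.38%). Malat1, an abundant RNA of nuclear speckles, lay at 10.66, 10.79 and 10.91 in animals 7 to 79, against 10.99, 11.14 and 11.93 in animals 84 to 128, with no overlap and a difference of −0.38 ± 0.10. Norad, which binds Pumilio proteins, differed by −0.33 ± 0.09. On the other side were the snoRNA host Snhg17 at 0.68 ± 0.18 and the vault RNA Vaultrc5 at 0.66 ± 0.12. Of 478 microRNA entries 6 were higher, a share of 1.26% that is near the 0.938% of all genes, and 0 were lower. Mir1954 lay at 7.73, 7.83 and 7.94 in animals 7 to 79, against 6.72, 7.11 and 7.58 in animals 84 to 128, a difference of 0.68 ± 0.10. Mir139, an entry below the median level, differed by 0.86 ± 0.14 with no overlap. The kit amplifies total RNA, and no label says whether mature microRNAs were kept in the extraction.

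Of single protein-coding genes that were higher, H4c12 and Cd209a had the widest differences. H4c12, a replication-type histone H4 gene, lay at 9.46, 9.74 and 12.26 in animals 7 to 79, against 8.32, 8.69 and 8.90 in animals 84 to 128. The groups did not overlap, and the highest value was that of animal 64, whose cell cycle genes were also far above their usual level. Its difference was 1.37 ± 0.24, and 1.04 without the 3 livers. Of 32 measured histone genes it was the only 1 past the threshold as higher (3.12%, against 0.938% of all genes). As lower were 0, and the median over the 32 was 0.17. In the 18 livers 3 of the 32 were higher. The cell cycle list had 0 of 19 members past the threshold, with medians of 0.52 in 21 livers and −0.01 in 18. With 2.31% of all genes past it in 21 livers, that count is near the background.

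Cd209a, a C-type lectin receptor of dendritic cells, lay at 7.66, 8.02 and 8.38 in animals 7 to 79, against 6.38, 6.64 and 7.40 in animals 84 to 128. Its difference was 1.27 ± 0.13, and 1.27 without the 3 livers. Medians of the later stretches were 7.10 in animals 137 to 235 and 7.91 in animals 253 to 301, so the last stretch was close to animals 7 to 79 for this gene. The other 5 measured members of its family, from Cd209b to Cd209g, were not past the threshold and lay below the median level of all genes. Of 14 other dendritic cell markers 0 were past the threshold, near the 2.31% of all genes, and their median was 0.08. Their mean deviation ran from −0.13 to 0.98 in animals 7 to 79, against −0.41 to 0.37 in animals 84 to 128, and their part in the difference of Cd209a was not tested.

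Other higher genes had groups that did not overlap. Sf3b5 of the SF3b splicing complex differed by 0.87 ± 0.13 and Atp6v0e of the vacuolar proton pump by 0.76 ± 0.13. Ost4 of the oligosaccharyltransferase at 0.61, Psenen of gamma-secretase at 0.54 and the ubiquitin-conjugating enzyme gene Ube2d2a at 0.49, are further examples, picked after their values were seen. Ube2d2a, Snord42b and Mir1954 were the 3 higher genes in which all 8 livers of animals 7 to 79 exceeded all other 42 livers. Ube2d2a lay at 8.39, 8.47 and 8.63 in animals 7 to 79, against 7.79, 8.02 and 8.24 in animals 84 to 128.

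The genes that were lower in animals 7 to 79 included enzymes of amino acid breakdown. All 9 measured kynurenine pathway genes had a negative difference, and 3 were past the threshold as lower, where 1.38% of all genes were, and 0 as higher. The list was added after the values were seen, so its count supports nothing further. Tdo2, the tryptophan dioxygenase that opens the pathway, lay at 7.39, 9.62 and 9.94 in animals 7 to 79, against 9.94, 10.60 and 11.41 in animals 84 to 128. The groups met at 9.94 and animal 64 was the lowest. Its difference was −1.20 ± 0.26, and −0.83 without the 3 livers. Kmo, the kynurenine hydroxylase, lay at 6.79, 8.91 and 9.22, against 9.03, 9.54 and 9.86 in animals 84 to 128, with −0.83 ± 0.22 and −0.62 without the 3 livers. Kmo was not past the threshold under 17 of 32 other settings, most of them with a single liver left out. Acmsd, which steers the pathway away from NAD synthesis, lay at 5.39, 5.59 and 6.37, against 5.69, 6.74 and 9.47 in animals 84 to 128. Its difference was −1.38 ± 0.34, and −1.08 without the 3 livers.

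In the list of urea cycle and amino acid catabolism all 15 measured members had a negative difference. Tdo2 was the only 1 past the threshold in 21 livers, and 5 were in 18, where 1.38% and 3.18% of all genes were lower. The list median was −0.56, and −0.32 in the 18 livers. Cps1, which feeds ammonia into the urea cycle, lay at 10.29, 11.80 and 12.10 in animals 7 to 79, against 11.99, 12.21 and 12.68 in animals 84 to 128. Its difference of −0.56 ± 0.16 was past the threshold only in the 18 livers, at −0.32. Outside that list, the transaminases Oat for ornithine and Got1 for aspartate were lower by −1.04 ± 0.25 and −1.06 ± 0.26. Oat was past the threshold under all but 4 and Got1 under all but 2 of 32 other settings.

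Mitochondrial breakdown of branched-chain amino acids and propionate followed the same direction. In a list added after the values were seen, 5 of 16 measured genes were past the threshold as lower, where 1.38% of all genes were, and 0 as higher, with a median of −0.43, and −0.25 in the 18 livers. Mccc1, a subunit of the leucine pathway carboxylase, differed by −0.71 ± 0.18, and Acad8, the dehydrogenase of valine breakdown, by −0.75 ± 0.19. Of the 3 steps from propionyl-CoA to succinyl-CoA, the genes Pcca, Mcee and Mmut differed by −0.69 ± 0.14, −0.60 ± 0.15 and −0.58 ± 0.15. Pcca lay at 6.90, 8.02 and 8.24 in animals 7 to 79, against 8.12, 8.69 and 8.88 in animals 84 to 128, and its groups did not overlap in the 18 livers.

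Hepatocyte markers moved with these lists in animal 64. Of 14 measured hepatocyte markers 0 were past the threshold and 3 had a positive difference, and the list median was −0.10, or −0.03 in the 18 livers. With 2.31% of all genes past the threshold in 21 livers, a count of 0 among 14 is near the background. The mean deviation of the markers was −1.12 to 0.01 in animals 7 to 79, against −0.43 to 0.15 in animals 84 to 128. Without the 3 livers it ran from −0.26 to 0.01, against −0.08 to 0.15. In whole liver, fewer cells of a type and less RNA per cell cannot be told apart. With the marker level as a covariate in the fit, 703 genes were lower and 386 higher.

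The pyruvate dehydrogenase complex, which turns pyruvate into acetyl-CoA, and the tricarboxylic acid cycle also held lower genes. Pdhb, the beta subunit of its first enzyme, lay at 7.44, 7.90 and 8.21 in animals 7 to 79, against 8.51, 8.84 and 9.51 in animals 84 to 128. The groups did not overlap and the difference was −1.08 ± 0.13, or −1.14 without the 3 livers. Pdha1, the alpha subunit, lay at 6.53, 6.90 and 7.06, against 7.02, 7.44 and 8.48 in animals 84 to 128, and differed by −0.66 ± 0.16. These were 2 of the 5 measured genes of the complex. Of 16 measured genes of the cycle, 3 were past the threshold as lower and 0 as higher in 21 livers, and 7 were lower in 18. They were Suclg2 at −0.58 ± 0.13, Sdha at −0.56 ± 0.12 and Idh3b at −0.46 ± 0.11, which encode subunits of a succinyl-CoA ligase, of succinate dehydrogenase and of an isocitrate dehydrogenase. Both lists were added after the values were seen. Over all genes 1.38% were lower in 21 livers and 3.18% in 18.

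**Figure D4:**
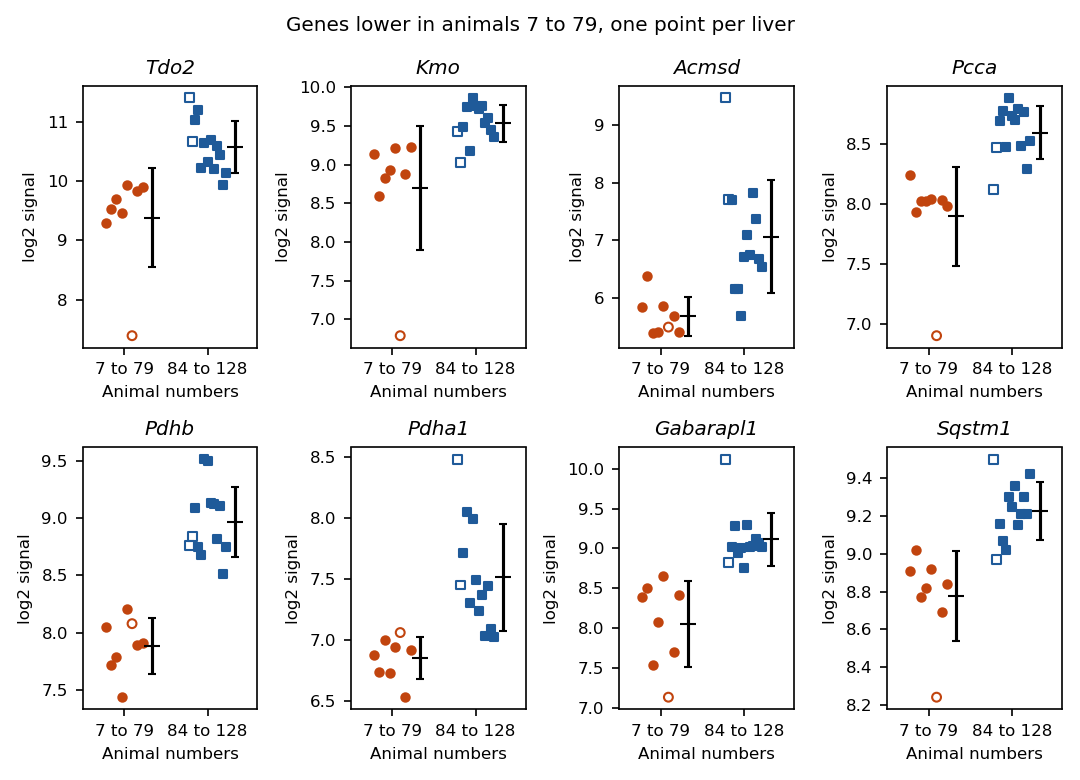
Log2 signal (vertical axes) of Tdo2, Kmo, Acmsd, Pcca, Pdhb, Pdha1, Gabarapl1 and Sqstm1 in each of the 8 livers of animals 7 to 79 and the 13 of animals 84 to 128. Open symbols are animals 64, 84 and 87, and bars show the mean and SD of each group. The groups do not overlap for Pdhb and Gabarapl1, and animal 64 is the lowest liver for Tdo2, Kmo, Pcca, Gabarapl1 and Sqstm1.

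Subunits of the respiratory chain and ATP synthase differed in both directions. Of 76 measured subunits, 9 were past the threshold as higher (11.8%, against 0.938% of all genes) and 5 as lower (6.58%, against 1.38%). Their median was 0.01, and in the 18 livers 13 were higher and 7 lower. Higher were Ndufa11, Ndufa2 and Ndufs8 of complex I, Uqcr11 of complex III, Cox4i1, Cox7b and Cox7a2 of complex IV, and Atp5e and Atp5l of ATP synthase, by 0.33 to 0.73. Lower were Ndufc1 of complex I, Sdha of complex II, Uqcrc2 of complex III, and Atp5d and Atp5a1 of ATP synthase, by −0.76 to −0.37. Cox4i1, a subunit of cytochrome c oxidase, lay at 9.0, 9.28 and 9.52 in animals 7 to 79, against 8.20, 8.51 and 8.96 in animals 84 to 128, and differed by 0.73 ± 0.10. Atp5a1, the alpha subunit of ATP synthase, lay at 9.95, 10.19 and 10.37, against 10.43, 10.56 and 10.96 in animals 84 to 128, and differed by −0.46 ± 0.08. The groups did not overlap for either gene, one of them higher and the other lower in animals 7 to 79. Nnt, the mitochondrial transhydrogenase, had −0.29 ± 0.19 and was not past the threshold.

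Genes of autophagy cargo capture were mostly lower. Proteins of the ATG8 family are tied to the growing autophagosome membrane, and receptor proteins link them to the cargo. In a list of both, added after the values were seen, 6 of 10 measured genes were past the threshold as lower and 1 as higher, in 21 and in 18 livers alike. Over all genes the shares were 1.38% lower and 0.938% higher in 21 livers, and 3.18% and 1.6% in 18. Gabarapl1, an ATG8 family member, lay at 7.13, 8.23 and 8.66 in animals 7 to 79, against 8.75, 9.02 and 10.12 in animals 84 to 128. The groups did not overlap, with a difference of −1.06 ± 0.18. Map1lc3b, another member, differed by −0.50 ± 0.12. The receptors Sqstm1, Nbr1, Calcoco1 and Tax1bp1 differed by −0.45 ± 0.09, −0.52 ± 0.12, −0.52 ± 0.13 and −0.36 ± 0.10. Gabarapl2 of the same family was higher instead, by 0.40 ± 0.08 with no overlap, and Gabarap had 0.07 ± 0.07. In a broader list of autophagy and the lysosome, 3 of 17 measured genes were lower and 0 higher, and its median was −0.08.

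Of 13 measured glucocorticoid responsive genes, a list added after the values were seen, 2 were lower and 0 higher. Over all genes 1.38% were lower and 0.938% higher. Depp1, a FOXO target, differed by −1.10 ± 0.25, and Nr3c1, the glucocorticoid receptor itself, by −0.38 ± 0.09. Nr3c1 lay at 6.82, 7.21 and 7.35 in animals 7 to 79, against 7.22, 7.51 and 7.93 in animals 84 to 128. Fkbp5 and Zbtb16, both induced by the receptor, had −0.85 ± 0.26 and −0.83 ± 0.43 and were not past the threshold, and Tsc22d3 had 0.04 ± 0.19.

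RNA-binding proteins of the hnRNP family, which coat nascent transcripts, had 2 of 17 measured members lower in 21 livers and 12 in 18, and 0 higher in either. The share of all genes that were lower was itself 1.38% in 21 livers and 3.18% in 18. This list too was added after the values were seen. Hnrnpa2b1 lay at 8.10, 8.30 and 9.09 in animals 7 to 79, against 8.75, 8.94 and 9.17 in animals 84 to 128, and differed by −0.57 ± 0.10. Hnrnpf differed by −0.54 ± 0.14. Hnrnpm lay at 7.38, 7.53 and 8.82, against 7.84, 8.06 and 8.27 in animals 84 to 128, and its groups did not overlap without the 3 livers. Its difference was −0.39 ± 0.13 in 21 livers and −0.53 in 18.

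Further lower genes whose groups did not overlap had varied roles. Morf4l2, a subunit of a histone acetyltransferase complex, differed by −0.80, and Ift20 of intraflagellar transport by −0.76. Mtch2, a protein of the outer mitochondrial membrane, had −0.74. The zinc finger gene Zscan26 had −0.72, the cargo receptor gene Tmed4 −0.66, and Os9, a lectin of degradation from the endoplasmic reticulum, −0.63. The list of endoplasmic reticulum chaperones had 1 of 14 measured members lower, where 1.38% of all genes were. It was the disulphide isomerase Pdia6 at −0.67 ± 0.15. In Copb2, Tmed4, Tmem167b and Zscan26 all 8 livers of animals 7 to 79 lay below all other 42 livers. Copb2, a coat protein of vesicles that return to the endoplasmic reticulum, lay at 8.14, 8.38 and 8.47, against 8.73, 8.92 and 9.11 in animals 84 to 128. Also lower were the carboxypeptidase Cpq at −1.10 ± 0.18, Fam98a at −0.88 ± 0.15, the collectin Colec10 at −0.85 ± 0.21 and Nrn1 at −0.92 ± 0.23. Nrn1 was not past the threshold under 10 of 32 other settings.

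Most lists of liver function and cell types had no member past the threshold. Of 50 lists with 683 measured genes, chosen with earlier results of these data known, 39 had none in 21 livers and 34 had none in 18. With 2.31% of all genes past it in 21 livers and 4.77% in 18, lists this short often hold none. These counts of lists therefore do not set the listed genes apart from all genes. None of the 14 cell type lists, with 164 measured markers, had a member past it in either set of livers, where 2.31% of all genes were past it in 21 livers and 4.77% in 18. A count of 0 among 164 markers lies below both shares, and whether it differs from them was not tested. List medians ran from −0.56 to 0.75 in 21 livers and from −0.44 to 0.40 in 18. The erythroid list had the highest median of 0.75, which was −0.01 without the 3 livers. B and plasma cell markers had 0.41 and 0.40. Pancreatic acinar markers had −0.37 and −0.44, both with animal 96, and 0.21 in the 20 livers without it, so 1 liver set the sign of that median. Gluconeogenesis had a median of −0.54 with all 10 measured genes negative and 0 past the threshold, against −0.30 and 1 lower gene in the 18 livers. Coagulation had F13b, a subunit of factor XIII, past the threshold at −0.80 ± 0.18 among 14 measured genes. The ErbB receptors and ligands had 0 of 12 past it, and Erbb2, the gene whose rat form is Neu, had −0.09 ± 0.19, with 0.11 in the 18 livers. Serpina1d, an alpha-1 antitrypsin, had 0.61 ± 1.31.

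**Figure D5:**
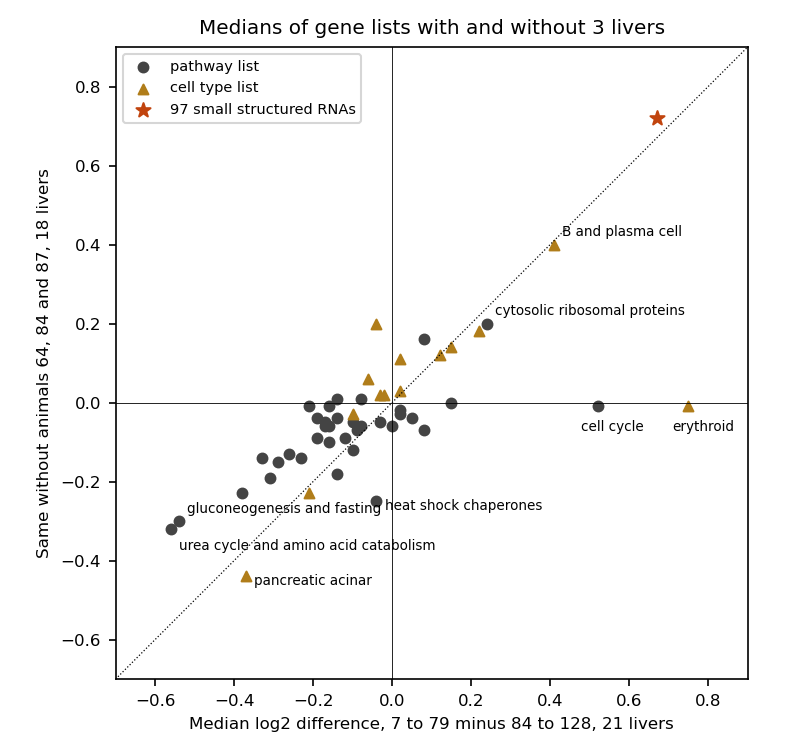
Median log2 difference, animals 7 to 79 minus animals 84 to 128, of each of 50 gene lists and of the 97 small structured RNAs in 21 livers (horizontal axis) and without animals 64, 84 and 87 (vertical axis). The dotted line marks equal medians. The small structured RNAs lie at 0.67 and 0.72, and the erythroid and cell cycle lists drop to −0.01 on the vertical axis.

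Some genes of protein synthesis and degradation were past the threshold. Of 81 genes with a cytosolic ribosomal protein symbol 4 were higher (4.94%, against 0.938% of all genes) and 0 lower (against 1.38%). Their median was 0.19, and 66 of the 81 had a positive difference. Rpl10a differed by 0.52 ± 0.14. In the lists, mitochondrial ribosomal proteins had 2 of 15 higher, Mrpl37 at 0.48 ± 0.11 and Mrpl28 at 0.43 ± 0.12. Proteasome subunits had 1 of 22 higher, Psmd14 at 0.53 ± 0.13, and 1 lower, Psmc4 at −0.45 ± 0.11. Beside both lists stand the same shares of all genes, 0.938% higher and 1.38% lower.

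Set beside the later animal numbers, animals 7 to 79 were at the edge for most of these genes. Among the 208 higher genes, 199 had their highest median of the 4 stretches in animals 7 to 79, and among the 305 lower genes 296 had their lowest median there. The median of animals 137 to 235 was nearer to that of animals 84 to 128 than to that of animals 7 to 79 for 162 of the higher and 234 of the lower genes. For animals 253 to 301 these counts were 150 and 251. The stretches were found in the same signals, so these counts describe the division too. Rny3 had medians of 9.65, 7.70, 7.66 and 8.53 along the 4 stretches in number order, and Pdhb had 7.90, 8.84, 8.71 and 8.72. For Rprl2 (7.61, 6.34, 6.41 and 7.04) and Snord11 (8.35, 7.28, 7.61 and 8.09) the last stretch was nearer to animals 7 to 79. Both RNAs had livers of that stretch inside the range of animals 7 to 79. For Rny1 (10.21, 8.80, 8.86 and 8.88) and Terc (6.85, 5.55, 5.03 and 5.19) the last stretch was nearer to animals 84 to 128.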

How the data were processed

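Liver RNA of 50 mice was measured on 1 Affymetrix array each, from 100 ng of total RNA per the labels' protocols. Liver is the labelled tissue, although the protocol for extraction mentions purified cell populations. Deposited values are on the log2 scale. Per the submitters' processing notes, RMA was run by the authors in the Affymetrix Expression Console, version 1.4.1. RMA normalises arrays by quantiles, which removes differences in total RNA, and signals of different genes are not comparable as amounts. Array medians of the 21 livers lay between 3.28 and 3.34. The genome build is not given in the sources used here.

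Of 41345 probe sets, 23521 carried 1 gene symbol, 1814 several and 16010 none in the platform annotation. The probe set with the highest median signal stood for a gene, which gave 22180 genes, of which 21994 were matched by ID to RefSeq for class and neighbouring genes. The median level over genes was 3.65.

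Groups were compared with limma 3.58.1 in R 4.3.3 (lmFit, eBayes with trend), adjusted by Benjamini-Hochberg over 22180 genes. Because the border between the groups came from these signals, the threshold of 0.05 sorts genes and no p-value is given. An unadjusted p under 0.05 was met by 3072 genes. The steps were tested on simulated data of these groups over 22180 genes. Of 100 genes changed by 0.5 log2, 37% were recovered, and of 100 changed by 1 log2, 80%. Unchanged genes made up 5.65% of the calls in the simulated data. Their share among the calls in the measured livers was not tested. The number of arrays limits the precision.

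Members, lists and tests were chosen with earlier results of these data known, and 11 lists were added after the values were seen. Named are the 12 genes with the widest difference in each direction among those at or above the median level and past the threshold with and without animals 64, 84 and 87, up to 10 in each direction whose groups did not overlap, members of the lists and classes described, and Rabggtb, Serpina1d, Erbb2 and Nnt. All other named genes were chosen after their values were seen. Python 3.11.15, numpy 2.4.6 and pandas 2.3.3 were used.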

Additional observations from a re-analysis of the deposited data

Results flagged for a closer look

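Of 42 results tested in the 8 livers of animals 7 to 79, 14 had 1 liver far from the others, where chance alone is set to give about 1 in 20. Groups of 13 were not tested. In 12 of the 14 the liver was that of animal 64. It was the highest for H4c12 at 12.26, with the next liver at 10.12. It was the lowest for Rny3 at 8.12 (next 9.40), Tdo2 at 7.39 (next 9.29), Kmo at 6.79 (next 8.59), Cpq at 6.72 (next 7.62) and Nrn1 at 7.84 (next 9.84). The same held for Zscan26 at 6.39 (next 7.04), Tmed4 at 6.45 (next 6.98), Tstd3 at 5.55 (next 6.16), Os9 at 7.19 (next 7.75), Erbb2 at 3.13 (next 3.44) and Nnt at 6.17 (next 7.29). Snord11 had its highest value of 8.98 in animal 10, with the next at 8.46, and Oat its highest of 9.78 in animal 60, with the next at 9.19.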

How the results depend on the processing

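Counts of genes past the threshold moved with the livers, genes and model used, from 208 higher and 305 lower. Without animals 64, 84 and 87 they were 354 and 705, and without animal 96 too, a choice made after seeing the data, 418 and 889. A fit of all 4 stretches gave 495 and 723, array weights 447 and 826, and hepatocyte markers as a covariate 386 and 703. All probe sets gave 474 higher, and genes at or above the median level 460 lower. A smallest difference of 0.5 log2 left 111 and 140. With 1 liver left out the counts ran from 160 to 312 higher and from 211 to 619 lower, the last without animal 64. Genes whose groups did not overlap numbered 66 higher and 173 lower without animals 64, 84 and 87. Small structured RNAs past the threshold ran from 48 to 62 and snoRNAs from 38 to 51 with 1 liver left out, around 54 and 43. The cause of these shifts was not tested. Of 1311 values of the 41 named genes under other settings, 1247 kept direction and side of the threshold, 59 kept direction only and 5 turned sign. Erbb2 turned to 0.11 without animals 64, 84 and 87, to 0.15 without animal 96 too, to 0.08 with array weights and to 0.06 without animal 84 (−0.13 to 0.06 with 1 liver left out), and Nnt to 0.01 with clock components as covariates. Of 2016 list medians 2 moved by more than the spread between livers, both among genes at or above the median level, adipocyte to −0.24 (otherwise 0.12) and the CD209 family to 1.27. Smaller shifts also turned signs between values of at least 0.1. Pancreatic acinar markers had −0.37, and 0.21 without animal 96. Female-biased genes had −0.21, and 0.24 without animal 64, 0.30 with the hepatocyte covariate and 0.48 with clock components. With clock components the cell cycle list had −0.11 and the erythroid list −0.10. No paired analysis was possible because the groups share no animal number.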

Other observations

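Probe sets without a single gene symbol showed more higher than lower signals. Of 16010 probe sets with no symbol in the annotation used, 234 were past the threshold as higher in animals 7 to 79 and 113 as lower. Of 1814 with several symbols, 39 were higher and 11 lower, against 201 higher and 287 lower among 23521 with 1 symbol. These counts come from 1 fit of all 41345 probe sets and share its division of the livers. In that fit 474 of the 41345 were higher and 411 lower, so higher signals also outnumbered lower ones over all probe sets.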
